A study of Mus musculus with 13 samples.

Results

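The mu-class glutathione transferases are the genes Gstm1 to Gstm7, and all 7 were found by symbol in a table of 23217 genes. Gstm6 was singled out because its level differed between xHomo and xHet embryos in these same data, while the other 6 were chosen by family name. The Gstm6 difference is therefore a description here, with no test, and the question asked was whether the rest of its gene cluster on chromosome 3 moved with it. Glutathione transferases join the tripeptide glutathione to reactive compounds, which makes these compounds more soluble and ready for export from the cell. The mu-class enzymes are cytosolic dimers. Several of their genes respond to the transcription factor Nrf2, the product of Nfe2l2, in adult mouse liver.

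Polyadenylated RNA was measured in 13 mouse embryos of embryonic day 9.5 on a C57BL/6J background. The labels call 10 embryos xHomo and 3 xHet and do not spell out these names, nor do they give litter or sex. The study is about imprint erasure by Tet1, which oxidizes methylated cytosine. As far as the study is known, fathers of xHomo embryos were homozygous and fathers of xHet embryos heterozygous for a Tet1 mutation, which is not in the labels. Levels are given as FPKM, in which fragments are divided by transcript length and by the mapped fragments of the library, so they can be compared between genes.

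The read depth behind the values is unknown. Summed over all genes, FPKM ran from 500126 to 662936 in xHomo embryos and from 543948 to 570161 in xHet embryos, and xHomo embryos 7, 8 and 9 had the 3 highest sums. Tet1 stood at 1.11 to 2.87 FPKM in xHomo embryos and 1.93 to 2.61 FPKM in xHet embryos. All 12 markers of an embryo at this stage passed the filter on low values, with a summed level of 4382 to 12836 FPKM in xHomo embryos and 8620 to 8843 FPKM in xHet embryos. The globin genes Hbb-y, Hbb-bh1 and Hba-x held most of that sum, with 4123 to 12571 FPKM in xHomo embryos and 8331 to 8567 FPKM in xHet embryos, while the other 9 markers summed to 259 to 399 FPKM in xHomo embryos and 275 to 288 FPKM in xHet embryos. Nothing in the labels says which embryos shared a litter, so p-values measure only the spread between these samples.

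The 7 genes lie within 168 kb of chromosome 3 of the mm9 build. In order along the chromosome, counted from 1, the deposited loci are Gstm5 (107680148 to 107701603), Gstm7 (107729252 to 107734663), Gstm6 (107741766 to 107746667), Gstm3 (107766614 to 107772092), Gstm2 (107784620 to 107789354), Gstm1 (107815168 to 107820891) and Gstm4 (107843326 to 107847777). Gstm5 at the edge of the cluster is on the plus strand and the other 6 are on the minus strand. The deposited Gstm5 locus is a bundle shared with 4933431E20Rik, annotated as its antisense gene, and with Eps8l3. The libraries were directional, but strand use in the quantification is not given in the sources used here. Whether reads of Gstm5 and 4933431E20Rik were kept apart is therefore unknown.

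The promoter windows of 4 members are shown because these genes carry the contrast described below. They are Gstm6 itself, its nearest neighbour Gstm7, the most abundant member Gstm5, and Gstm1, which had the largest difference after Gstm6. Each is 300 bases from RefSeq on GRCm38.p6, 250 before and 50 after the listed start, written 5′ to 3′ on the gene's strand with each CG dinucleotide, the site of cytosine methylation, in capitals.
Gstm6 (chr3:107943685-107943984, minus strand): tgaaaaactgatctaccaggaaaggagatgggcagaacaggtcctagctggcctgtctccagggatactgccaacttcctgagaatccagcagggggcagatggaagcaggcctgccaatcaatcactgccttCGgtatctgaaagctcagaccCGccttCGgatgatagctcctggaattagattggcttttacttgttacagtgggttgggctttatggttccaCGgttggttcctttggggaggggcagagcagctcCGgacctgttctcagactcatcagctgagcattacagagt
Gstm7 (chr3:107931768-107932067, minus strand): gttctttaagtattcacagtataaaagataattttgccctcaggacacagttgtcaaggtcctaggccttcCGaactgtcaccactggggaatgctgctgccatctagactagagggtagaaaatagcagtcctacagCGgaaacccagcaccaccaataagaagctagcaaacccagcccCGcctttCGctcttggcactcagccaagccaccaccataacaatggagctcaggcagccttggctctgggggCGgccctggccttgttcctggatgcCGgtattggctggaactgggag
Gstm5 (chr3:107895604-107895903, plus strand): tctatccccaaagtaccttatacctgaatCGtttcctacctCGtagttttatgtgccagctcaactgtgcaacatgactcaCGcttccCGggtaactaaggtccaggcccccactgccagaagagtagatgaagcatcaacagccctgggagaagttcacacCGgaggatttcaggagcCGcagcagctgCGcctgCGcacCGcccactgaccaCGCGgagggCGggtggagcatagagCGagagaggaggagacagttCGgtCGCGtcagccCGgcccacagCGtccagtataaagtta
Gstm1 (chr3:108017924-108018223, minus strand): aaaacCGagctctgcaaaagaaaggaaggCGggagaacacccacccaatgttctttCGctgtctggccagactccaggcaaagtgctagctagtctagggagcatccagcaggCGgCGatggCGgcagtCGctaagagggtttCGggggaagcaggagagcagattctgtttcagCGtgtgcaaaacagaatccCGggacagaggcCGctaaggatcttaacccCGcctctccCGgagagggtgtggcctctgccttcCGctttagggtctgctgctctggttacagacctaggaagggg
The Gstm6 window held 5 CG dinucleotides and that of Gstm7 held 6, against 18 for Gstm5 and 14 for Gstm1. The median of all 32851 RefSeq windows was 7, and 56.4% of them held more than Gstm6. The other members had 3 for Gstm2, 5 for Gstm3 and 14 for Gstm4. RefSeq lists 3 starts for Gstm6, and the one shown spans a gene closest in length to the deposited locus.

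The windows were searched on both strands for 4 short motifs. The core of the antioxidant response element bound by Nrf2, TGACNNNGC, was found in 12.4% of all windows and, among the 7 members, in that of Gstm5 alone. The AP-1 motif TGANTCA, found in 7.81% of all windows, was likewise found among the members in Gstm5 alone. The GC box GGGCGG was present in Gstm3, Gstm4, Gstm5 and Gstm7 and in 35.7% of all windows, and TATAAA in Gstm5 and Gstm7 and in 13.6%. None of the 4 was found in the windows of Gstm6, Gstm1 or Gstm2. These are matches of letters within 300 bases and say nothing of what binds there.

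Gstm6 was the member whose levels did not overlap between the groups. Its FPKM in xHomo embryos 1 to 10 was 2.01, 2.02, 1.92, 1.68, 1.44, 1.75, 2.67, 3.07, 3.18 and 1.44. In xHet embryos 1 to 3 it was 0.73, 0.63 and 0.51. The lowest xHomo embryo was thus above the highest xHet embryo, and xHomo embryos 7, 8 and 9 were the highest of all. The mean was 2.12 ± 0.636 FPKM (SD, n = 10) in xHomo embryos and 0.623 ± 0.110 FPKM (SD, n = 3) in xHet embryos, a ratio of 3.40 and a difference of 0.92 on the log2(FPKM+1) scale. That scale understates the change of low genes: the difference was 1.58 with a pseudocount of 0.1 and 0.34 with a pseudocount of 5. Over the 13 embryos Gstm6 averaged 1.77 FPKM, and it passed the filter of a mean of 1 FPKM only through the xHomo embryos. In all, 1.66% of the 12755 genes tested were higher in every xHomo than in every xHet embryo. In bulk RNA of embryos, fewer cells that express a gene and less RNA per cell cannot be told apart.

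**Figure D1:**
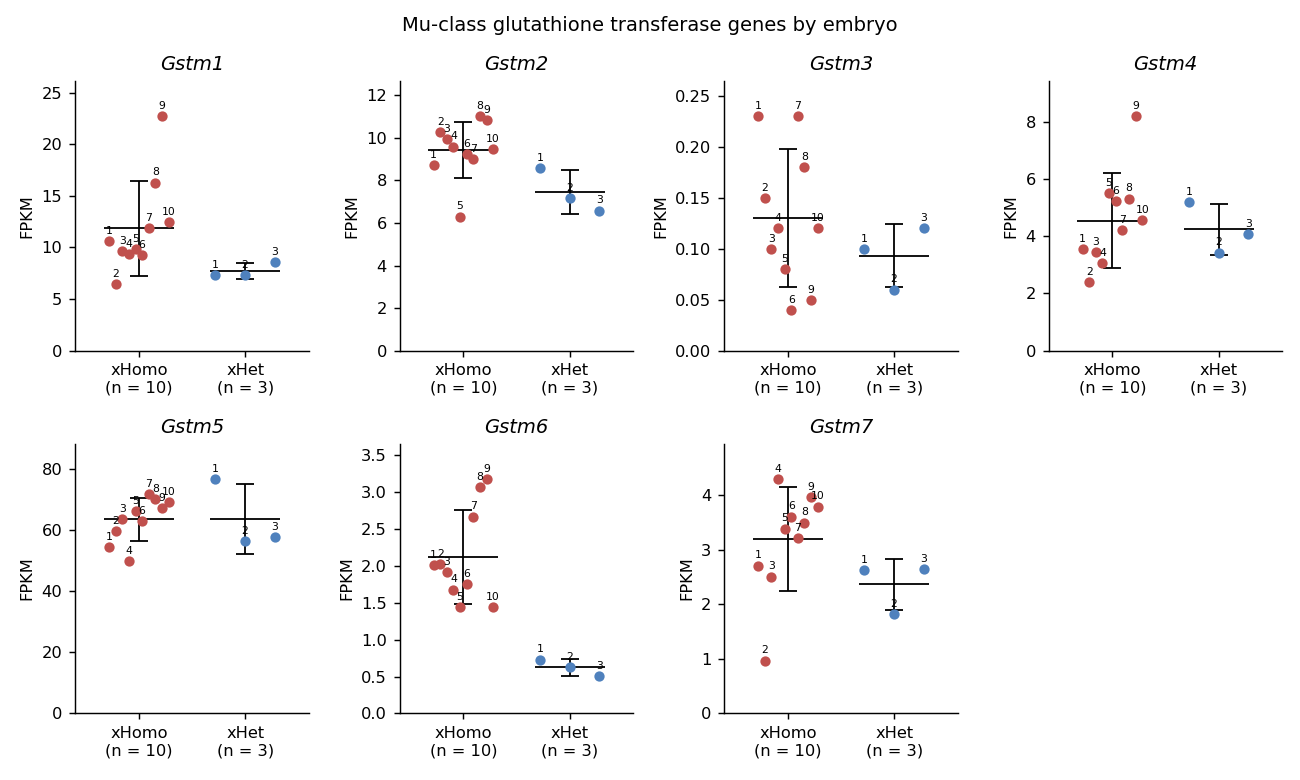
Levels of the 7 Gstm genes in FPKM, 1 panel per gene with its own axis from 0; points are embryos with their replicate numbers, xHomo left and xHet right, and bars give the mean and SD (n = 10 and n = 3). Gstm6 is the panel in which the groups do not overlap, with 1.44 to 3.18 FPKM in xHomo embryos and 0.51 to 0.73 FPKM in xHet embryos.

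Within xHomo embryos, Gstm6 spanned a similar range with and without the RNA of the inactive X chromosome. Xist was 0.05 to 0.10 FPKM in 5 xHomo embryos, 30.5 to 158.8 FPKM in the other 5 xHomo embryos and 0.05 to 0.08 FPKM in the xHet embryos. Gstm6 was 1.44 to 3.07 FPKM in the 5 xHomo embryos with low Xist and 1.44 to 3.18 FPKM in the other 5. In the xHet embryos it was 0.51 to 0.73 FPKM. Every xHomo embryo was above every xHet embryo, so any split of the xHomo embryos would leave each part higher. The split is therefore no test of the difference between the groups.

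None of the other tested members passed the comparison of xHomo with xHet embryos. Of the 6, Gstm3 was below the filter and 5 were tested with limma, and 0 passed a Benjamini-Hochberg adjusted p of 0.05 over all genes, where 3 of 12755 genes (0.0235%) passed. The difference in mean log2(FPKM+1) was positive for all 5, by as little as 0.0034 for Gstm5, with a median of 0.28 against 0.046 for all genes tested, but the sign turned under TPM rescaling for Gstm4 and Gstm5. An unadjusted p under 0.05 was found for 1 of the 5, Gstm2, where 9.35% of all genes had one. Among all genes tested, 7620 were higher and 5135 lower in xHomo embryos.

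Gstm1, whose product is a major glutathione transferase of adult mouse liver, had the largest difference of these 5. Its lowest, median and highest levels were 6.45, 10.2 and 22.7 FPKM in xHomo embryos, against 7.33, 7.29 and 8.61 FPKM in xHet embryos 1 to 3. Of the xHomo embryos, 9 were above the highest xHet embryo and xHomo embryo 2 was below the lowest, so the groups overlapped through 1 embryo. The mean was 11.9 ± 4.60 FPKM (SD, n = 10) in xHomo embryos and 7.74 ± 0.751 FPKM (SD, n = 3) in xHet embryos. The log2 difference was 0.49 (SE 0.25, 95% interval -0.045 to 1.02, limma adjusted p = 0.557). xHomo embryo 9 at 22.7 FPKM and xHomo embryo 8 at 16.3 FPKM stood above the other 8 xHomo embryos, none of which exceeded 12.5 FPKM.

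Gstm2, a close relative of Gstm1, was higher by a smaller amount with less spread. Its lowest, median and highest levels were 6.30, 9.52 and 11.01 FPKM in xHomo embryos, beside levels of 8.59, 7.15 and 6.58 FPKM in xHet embryos 1 to 3. Again 9 of 10 xHomo embryos were above every xHet embryo, and xHomo embryo 5 was below them all. The share of all genes with 9 of 10 above was not counted. Gsta4, Gsto1, G6pdx and Cbr1, named below for a small limma p, also had 9 above. Gstm2 averaged 9.43 ± 1.33 FPKM (SD, n = 10) in xHomo embryos and 7.44 ± 1.04 FPKM (SD, n = 3) in xHet embryos. The log2 difference was 0.30 (SE 0.13, 95% interval 0.023 to 0.58), with a limma adjusted p of 0.518, and it was 0.15 under TPM rescaling without small RNA genes. With array weights, which let limma count some embryos less, Gstm1 and Gstm2 passed (limma adjusted p = 0.0205 and 0.0152), but so did 2779 of all genes.

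Gstm7, the gene next to Gstm6, had levels that overlapped between the groups. It stood at 0.97, 3.45 and 4.30 FPKM (lowest, median, highest) in xHomo embryos, against 2.63, 1.82 and 2.65 FPKM in xHet embryos 1 to 3. Of the xHomo embryos, 8 were above the highest xHet embryo and xHomo embryo 2 was below the lowest. The log2 difference was 0.28 (SE 0.23, 95% interval -0.21 to 0.78, limma adjusted p = 0.713). It was 0.16 without xHet embryo 2 and 0.17 under TPM rescaling without small RNA genes, but 0.40 without xHomo embryo 2. Over 25 alternatives it ranged from -0.18 to 0.42, with 1 change of sign. Gstm6 was at 2.02 FPKM in xHomo embryo 2, which had the lowest Gstm7 of all 13 embryos.

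Gstm4, at the other end of the cluster from Gstm5, was level between the groups on average. It was 2.39, 4.39 and 8.19 FPKM (lowest, median, highest) in xHomo embryos and 5.20, 3.43 and 4.07 FPKM in xHet embryos 1 to 3, with 4 xHomo embryos above and 2 below the xHet range. Its log2 difference of 0.044 (SE 0.23, 95% interval -0.45 to 0.54, limma adjusted p = 0.960) became -0.026 under TPM rescaling.

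Gstm5, known for its expression in brain and testis, was the most abundant member and had nearly equal means in the groups. It stood at 49.7, 64.9 and 71.7 FPKM (lowest, median, highest) in xHomo embryos, against 76.7, 56.3 and 57.7 FPKM in xHet embryos 1 to 3. No xHomo embryo was above the highest xHet embryo, and 2 were below the lowest. The mean was 63.5 ± 7.08 FPKM (SD, n = 10) in xHomo embryos and 63.6 ± 11.4 FPKM (SD, n = 3) in xHet embryos. The log2 difference of 0.0034 had a 95% interval of -0.26 to 0.26 (limma adjusted p = 0.993), and its sign turned under each of the 4 rescalings tried.

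Gstm3 was close to the floor of the table in every embryo. It stood at 0.04, 0.12 and 0.23 FPKM (lowest, median, highest) in xHomo embryos and at 0.10, 0.06 and 0.12 FPKM in xHet embryos 1 to 3, averaging 0.122 FPKM over all 13. It was not tested, and 4 xHomo embryos were above and 2 below the xHet range. Gstm3 lies between Gstm6 and Gstm2.

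By mean level the order was the same in both groups, namely Gstm5, Gstm1, Gstm2, Gstm4, Gstm7, Gstm6 and Gstm3 from high to low. Gstm1 and Gstm2 overlapped within xHomo and within xHet embryos. Gstm2 and Gstm4, Gstm4 and Gstm7, and Gstm7 and Gstm6 overlapped in xHomo embryos, whereas in xHet embryos none of these pairs did. Gstm5 stood above all others, and Gstm3 below all others, in every embryo. Among xHomo embryos the coefficient of variation was 38.8% for Gstm1, 36.2% for Gstm4, 30.1% for Gstm6, 29.7% for Gstm7, 14.1% for Gstm2 and 11.2% for Gstm5.

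**Figure D2:**
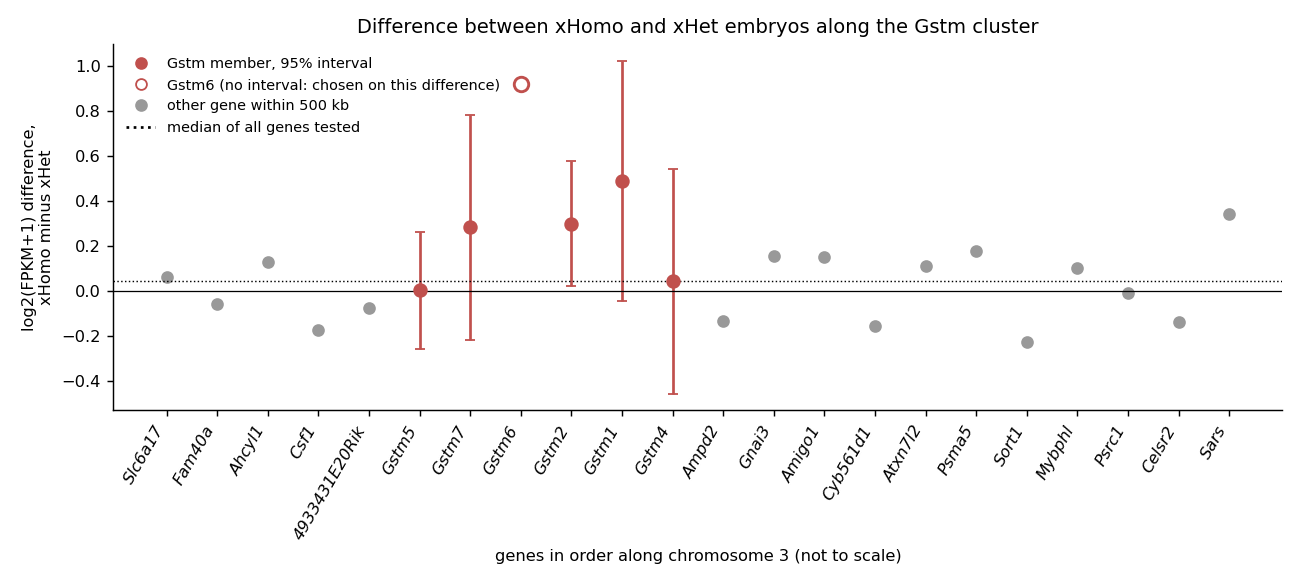
Difference in mean log2(FPKM+1), xHomo minus xHet, for tested genes of the Gstm cluster and within 500 kb (1 of the 17 other genes is not drawn), in order along chromosome 3; red points are Gstm genes with 95% intervals from limma, the open circle is Gstm6 with no interval, grey points are other genes and the dotted line is the median of all genes tested. Gstm6 stands at 0.92, the other Gstm genes at 0.0034 to 0.49 and the other genes at -0.23 to 0.34.

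Genes around the cluster did not pass either. Of 26 other genes with a locus within 500 kb, 17 were tested, and 9 were higher and 8 lower in xHomo embryos, beside 7620 and 5135 of all genes. In limma 0 passed (0.0235% of all genes did), and the median log2 difference was 0.062. An unadjusted p under 0.05 was found for 1 of the 17, where 9.35% of all genes had one. This was Sars, the seryl-tRNA synthetase gene, which stood at 39.4 ± 8.06 FPKM (SD, n = 10) in xHomo embryos and 30.5 ± 3.16 FPKM (SD, n = 3) in xHet embryos (limma adjusted p = 0.521). Psma5, a proteasome subunit gene, averaged 149 ± 15.0 FPKM in xHomo embryos and 131 ± 10.9 FPKM in xHet embryos (limma adjusted p = 0.591). Ahcyl1 averaged 33.9 ± 3.62 FPKM in xHomo embryos and 30.7 ± 0.913 FPKM in xHet embryos (limma adjusted p = 0.678).

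The summed level of the family overlapped between the groups, while Gstm6 held a larger part of it in xHomo embryos. The 7 genes summed to 77.8, 92.4 and 116 FPKM (lowest, median, highest) in xHomo embryos, against 101.3, 76.7 and 80.2 FPKM in xHet embryos 1 to 3. Gstm6 made up 2.22% ± 0.479 (SD, n = 10) of that sum in xHomo embryos and 0.726% ± 0.0929 (SD, n = 3) in xHet embryos, and its share was 1.43% to 2.81% in xHomo and 0.636% to 0.821% in xHet embryos. Gstm5 made up 57.9% to 72.8% in xHomo embryos and 71.9% to 75.7% in xHet embryos, and only xHomo embryo 2 lay within the xHet range. Gstm1 made up 7.88% to 19.6% in xHomo embryos and 7.24% to 10.7% in xHet embryos. The shares sum to a whole, so a higher share of 1 gene lowers those of the rest, and they are given as a description.

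**Figure D3:**
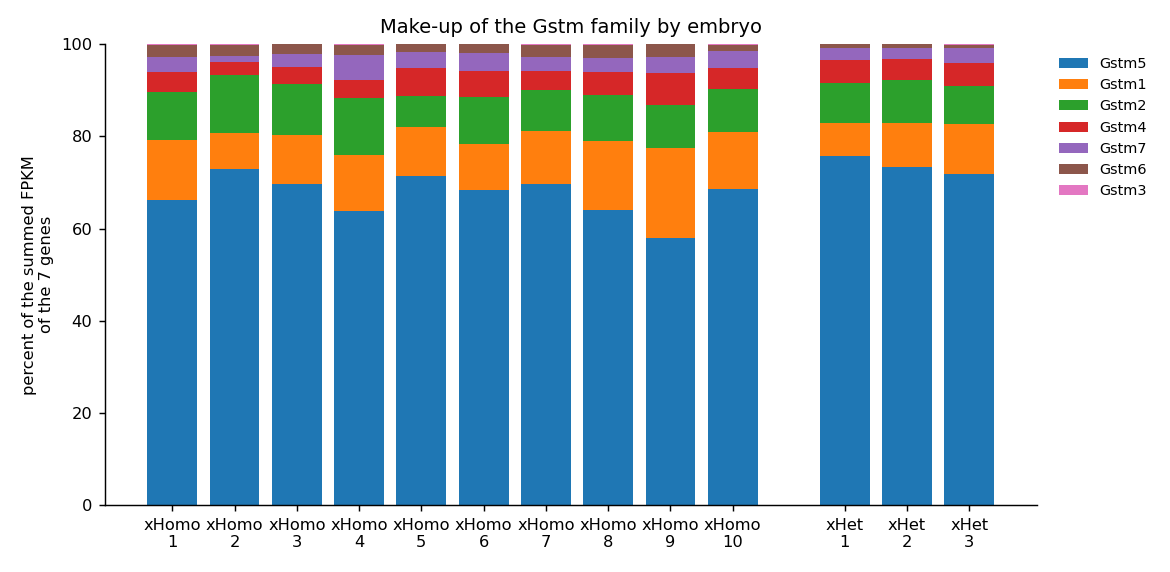
Percent of the summed FPKM of the 7 Gstm genes held by each gene, 1 stacked bar per embryo, xHomo left and xHet right. Gstm5 holds 57.9% to 72.8% in xHomo embryos and 71.9% to 75.7% in xHet embryos, and Gstm6 holds 1.43% to 2.81% in xHomo embryos and 0.636% to 0.821% in xHet embryos.

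Similar sequences limit how surely reads can be assigned to 1 member. In the longest protein-coding GENCODE transcript of each gene, 6.73% of the 50-base stretches of Gstm6 were shared with Gstm3 and 11.5% with any other gene, pseudogenes included. Gstm1 shared 10.9% with Gstm2 or Gstm3 and 23.1% with any gene, Gstm2 shared 1.08% with Gstm1 and 9.36% with any gene, and Gstm3 shared 15.8% with Gstm1 or Gstm6. Gstm4, Gstm5 and Gstm7 shared none. Aligned locally, the Gstm6 transcript was 70.9% identical to that of Gstm5 and 82.8% identical to that of Gstm2, the lowest and the highest of its 6 pairs. The read length is not given in the sources used here, and how the authors' quantification divided shared reads was not tested.

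Whether the other members followed Gstm6 from embryo to embryo was asked within the 10 xHomo embryos, where the difference between the groups does not enter. Of the 5 tested members, 3 were given a correlation on the log2 scale, and 0 passed after adjustment over the 10125 genes given a value, of which 0% passed and 12.6% had an unadjusted p under 0.05. The smallest p that 100000 permutations can give was too large for a gene to pass alone over 10125 genes. A count of 0 passing therefore does not show that no member followed Gstm6. A value was withheld where the largest gap between the sorted levels exceeded 0.5 of their range, which was so for Gstm2 (0.571) and Gstm7 (0.584). For Gstm1 the Pearson r was 0.668, with a permutation p of 0.0314 that became 0.376 after adjustment. Its Spearman rho was 0.413, with a permutation p of 0.235 and of 0.546 once adjusted. For Gstm4 r was 0.391, with a permutation p of 0.267 that became 0.568, and rho was 0.146, with a permutation p of 0.689 that became 0.839. For Gstm5 r was 0.363, with a permutation p of 0.304 that became 0.595, and rho was 0.322, with a permutation p of 0.363 that became 0.630.

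Leaving out 2 embryos lowered the r of Gstm4 and Gstm5. Embryos 8 and 9 were farthest from the median of Gstm6 and also had the 2 highest levels of Gstm1. Without them r was -0.35 for Gstm4 and 0.117 for Gstm5, and no r was taken for Gstm1, whose largest gap was then 0.543 of the range. Leaving out 1 embryo at a time, r ranged from 0.461 to 0.783 for Gstm1, from 0.0289 to 0.554 for Gstm4 and from 0.25 to 0.543 for Gstm5. The lowest value for Gstm4 was that without xHomo embryo 9. Embryos 7, 8 and 9, with the highest Gstm6, had the highest summed FPKM of all genes, and after TPM rescaling, which sets these sums equal, r was 0.519 for Gstm1, 0.131 for Gstm4 and -0.088 for Gstm5. The other scalings differed from this: under median-of-ratios scaling r was 0.662 for Gstm1, 0.350 for Gstm4 and 0.461 for Gstm5. Quantile normalization gave 0.597, 0.358 and 0.576 in the same order. Across all genes given a value the quartiles of r were -0.337, 0.0195 and 0.404, and 6.16% of genes had a higher r with Gstm6 than Gstm1 did, 26.0% a higher r than Gstm4 and 28.3% a higher r than Gstm5.

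**Figure D4:**
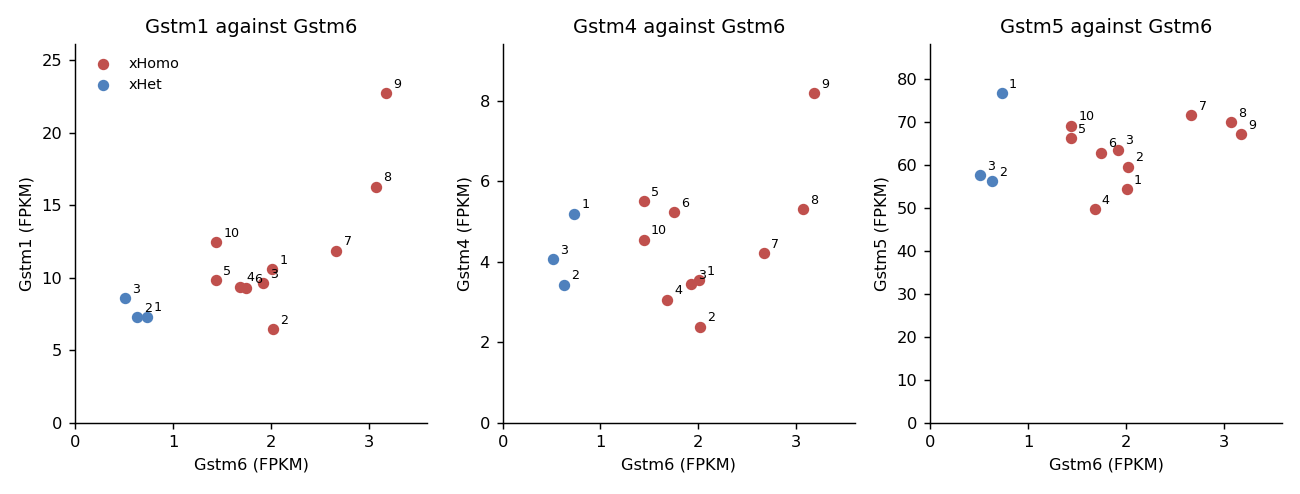
Level of Gstm1, Gstm4 and Gstm5 (vertical, FPKM) against that of Gstm6 (horizontal, FPKM), 1 point per embryo with its replicate number, xHomo red and xHet blue. xHomo embryos 8 and 9 combine the highest Gstm6 (3.07 and 3.18 FPKM) with the highest Gstm1 (16.3 and 22.7 FPKM) and stand apart from the other 8 xHomo embryos in the Gstm1 panel.

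The genes outside the family whose levels were most like those of Gstm6 over the 10 xHomo embryos were chosen as the extremes of 10125 genes, and none passed, each with a permutation adjusted p of 0.366. The highest r were 0.925 for Gpank1, 0.920 for Gm2694, 0.894 for Alkbh6, 0.891 for Rnf217 and 0.874 for Hspb11, with rho of 0.857, 0.863, 0.875, 0.669 and 0.760 in the same order. The lowest were -0.912 for Tmod2, which encodes an actin-capping tropomodulin, -0.888 for Slfn9 and -0.887 for Sdpr, which encodes a protein of caveolae, with rho of -0.918, -0.878 and -0.948. Without embryos 8 and 9, r was 0.830 for Gm2694, 0.679 for Alkbh6, 0.738 for Hspb11, -0.853 for Tmod2, -0.797 for Slfn9 and -0.817 for Sdpr, and was not taken for Gpank1 and Rnf217.

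The enzymes that act beside the mu class were compared in the same fit. Of 19 genes of other glutathione transferase classes 11 were tested, 9 were higher and 2 lower in xHomo embryos, beside 7620 higher and 5135 lower among all genes, 0 passed in limma (0.0235% of all genes did) and 2 of the 11 had an unadjusted p under 0.05 (9.35% of all genes did), with a median log2 difference of 0.11. Gsta4, an alpha-class enzyme that clears lipid peroxidation products, had 39.2 ± 5.51 FPKM (SD, n = 10) in xHomo embryos and 28.6 ± 2.49 FPKM (SD, n = 3) in xHet embryos (log2 difference 0.43, SE 0.13, limma adjusted p = 0.449). Gsto1, of the omega class, had 35.7 ± 4.46 FPKM in xHomo embryos and 27.8 ± 2.90 FPKM in xHet embryos (0.34, SE 0.11, limma adjusted p = 0.486). The theta-class genes went opposite ways without passing: Gstt1 had 1.52 ± 0.284 FPKM in xHomo and 1.09 ± 0.601 FPKM in xHet embryos, and Gstt2 1.43 ± 0.261 FPKM in xHomo and 1.90 ± 0.480 FPKM in xHet embryos (limma adjusted p = 0.573 and 0.569).

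Genes of glutathione synthesis and recycling split both ways. Of 18 genes 16 were tested, and 9 were higher and 7 lower in xHomo embryos, beside 7620 and 5135 of all genes. In limma 0 passed (0.0235% of all genes did) and 1 of the 16 had an unadjusted p under 0.05 (9.35% of all genes did). The median log2 difference was 0.074. Gpx4, which reduces lipid hydroperoxides with glutathione, had 167 ± 32.3 FPKM (SD, n = 10) in xHomo embryos and 127 ± 9.14 FPKM (SD, n = 3) in xHet embryos (limma adjusted p = 0.521). Gsr, which regenerates glutathione from its oxidized form, had 17.5 ± 1.57 FPKM in xHomo embryos and 15.3 ± 1.19 FPKM in xHet embryos (limma adjusted p = 0.558). Chac2, which degrades glutathione, had 2.47 ± 0.469 FPKM in xHomo embryos and 1.99 ± 0.0964 FPKM in xHet embryos, and Gpx1, a peroxidase, 147 ± 18.2 FPKM in xHomo embryos and 130 ± 7.80 FPKM in xHet embryos (limma adjusted p = 0.629 and 0.649).

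The Nrf2 pathway, which controls several Gstm genes in adult liver, was examined likewise. Of 24 genes 21 were tested, 15 were higher and 6 lower in xHomo embryos, beside 7620 and 5135 of all genes, 0 passed in limma (0.0235% of all genes did), and the median log2 difference was 0.076. An unadjusted p under 0.05 was found for 4 of the 21, beside 9.35% of all genes. G6pdx, the first enzyme of the pentose phosphate pathway, had 14.3 ± 1.69 FPKM (SD, n = 10) in xHomo embryos and 11.04 ± 0.570 FPKM (SD, n = 3) in xHet embryos, and Cat, encoding catalase, 27.6 ± 2.78 FPKM in xHomo embryos and 22.3 ± 0.725 FPKM in xHet embryos (limma adjusted p = 0.481 for both). Keap1, which holds Nrf2 in check, had 9.75 ± 1.14 FPKM in xHomo embryos and 7.93 ± 0.618 FPKM in xHet embryos, and Cbr1, a carbonyl reductase, 29.1 ± 3.15 FPKM in xHomo embryos and 24.3 ± 1.87 FPKM in xHet embryos (limma adjusted p = 0.513 for both).

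**Figure D5:**
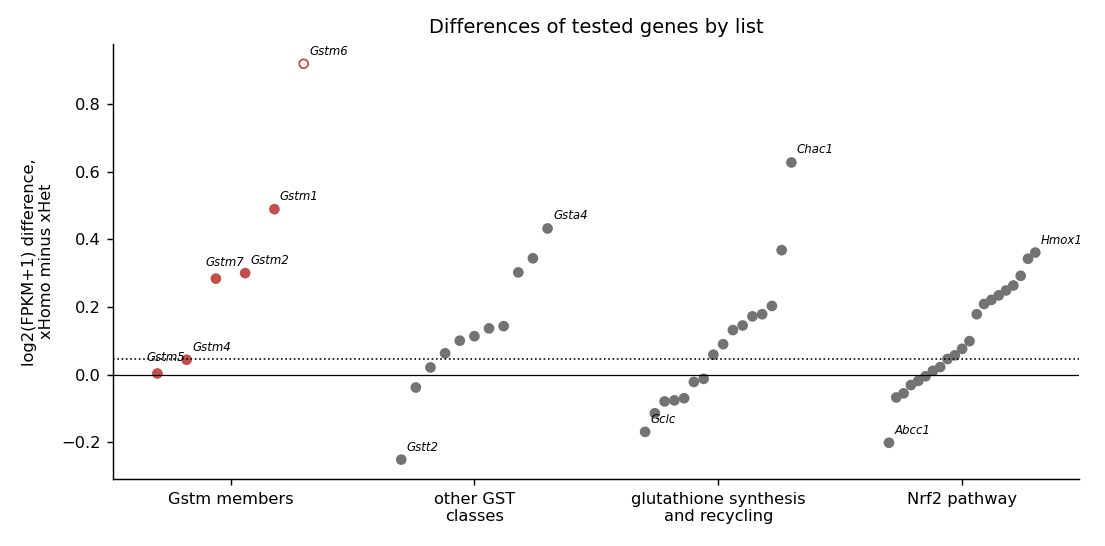
Difference in mean log2(FPKM+1), xHomo minus xHet, of each tested gene in 4 lists, sorted within each list; the open circle is Gstm6, the lowest and highest gene of the other lists are named, and the dotted line is the median of all genes tested. Gstm6, which was singled out by this same difference, stands at 0.92, and the medians of the 3 other lists are 0.11, 0.074 and 0.076.

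Markers of other cell types and of the RNA were set beside these values. Visceral endoderm and early liver, which can carry glutathione transferases, had 8 of 13 markers tested, 5 higher and 3 lower with 0 passing in limma (0.0235% of all genes did). Trf, lower in xHomo embryos, was the 1 at an unadjusted p under 0.05, beside 9.35% of all genes. The 13 markers summed to 21.8, 69.2 and 110 FPKM (lowest, median, highest) in xHomo embryos and 57.9 to 75.7 FPKM in xHet embryos, with none at 0 in all embryos. The lowest sum was that of xHomo embryo 3, where Afp was 7.22 FPKM. Trophoblast markers summed to 17.2 to 27.9 FPKM in xHomo embryos and 18.3 to 21.3 FPKM in xHet embryos (4 of 8 tested, 1 higher, 0 passing in limma and 1 at an unadjusted p under 0.05, Tpbpa at 0 in all embryos). Hand1, at 10.1 to 14.7 FPKM in xHomo embryos and 8.83 to 9.21 FPKM in xHet embryos, held the largest part of that sum. It was also the 1 tested marker that was higher and the 1 at an unadjusted p under 0.05. The other 3 tested, Prl3b1, Psg23 and Plac1, were lower without passing, so the level of Hand1 does not show more trophoblast in xHomo embryos. Decidual markers summed to 20.6 to 31.2 FPKM in xHomo embryos and 20.3 to 25.6 FPKM in xHet embryos (3 of 6 tested, 2 higher, 0 passing in limma and 1 at an unadjusted p under 0.05, Prl3c1 at 0 in all embryos). Des, Cryab and Bmp2, the 3 tested, held nearly all of that sum. Prl8a2 and Pgr were at most 0.18 FPKM in every embryo, so the sum does not show that decidua was present. Replication-dependent histone genes, a sign of poly(A) selection, were higher in xHomo embryos in 14 of 14 tested members, with 0 passing in limma, 5 of the 14 at an unadjusted p under 0.05, beside 9.35% of all genes, and a median log2 difference of 0.47 against 0.046 for all genes. Their summed level was 74.8 to 155 FPKM in xHomo embryos and 48.7 to 78.4 FPKM in xHet embryos. Their part in the levels of Gstm6 and the other members was not tested.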

How the data were processed

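Gene levels are FPKM as the authors deposited them, in 1 table with mm9 loci. The submitters' processing notes name Cufflinks, TopHat, bcl2fastq 1.8.2 and the mm9 build. The annotation, strand use and remaining versions were not given in the sources used here. Per the labels' protocols, libraries were directional and made after poly(A) isolation. The table holds no read counts, so the depth is unknown, and low values are the most uncertain. FPKM depends on the mapped fragments of a library, so a few abundant RNAs can shift all other genes.

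Groups came from the titles. The 12755 genes averaging 1 FPKM or more over 13 embryos were tested on log2(FPKM+1) in R 4.3.3, by limma 3.58.1 with trended eBayes, two-sided and with no covariate, and adjusted by Benjamini-Hochberg over all genes tested at 0.05. Both fit and correlation step were tested on simulated data. The simulation of the fit gave both groups of a gene the same spread, so it does not show how the fit behaves where spreads differ. For Gstm1 the SD of log2(FPKM+1) was 0.459 in xHomo and 0.121 in xHet embryos. The correlation simulation held fewer genes than the 10125 given a value here, so it does not show which r could have passed. Correlations with Gstm6 used 100000 two-sided permutations over 10 xHomo embryos, adjusted over all genes given a value. Python 3.11.15 with numpy 2.4.6, pandas 2.3.3, scipy 1.17.1, matplotlib 3.10.9 and Biopython 1.88 did the rest. Loci start 1 base later than in the table, whose starts count from 0. Shared stretches came from GENCODE transcripts.

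The members, gene lists, tests and naming rule were chosen with earlier results of these data known. Named were all 7 members, up to 4 genes with the smallest limma p from each list of other glutathione transferases, glutathione genes, Nrf2 genes and neighbours within 500 kb, and the 5 highest and 3 lowest correlations with Gstm6. Alternatives were other pseudocounts, filters, scalings, an Xist covariate, array weights, a replicate block, an exact permutation test and leaving out each embryo. Protein sequences were not used here. One neighbour within 500 kb that the naming rule selects is not reported here and stays in the counts.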

Additional observations from a re-analysis of the deposited data

Results flagged for a closer look

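Among the 10 xHomo embryos, single low levels stood apart for 2 members on the log2(FPKM+1) scale. Gstm2 in xHomo embryo 5, at 6.30 FPKM, was separated from the next embryo by 0.571 of the group's range (Dixon's ratio, above its 95% critical value for 10 samples). Gstm7 in xHomo embryo 2, at 0.97 FPKM, was separated by 0.584 of the range. By chance about 1 in 20 groups gives such a value.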

How the results depend on the processing

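The count of other members called stayed at 0 in 25 of 26 alternatives and was 2 with array weights, under which 2779 of all genes passed, 2371 higher and 408 lower in xHomo embryos. The count of correlated members was 0 in all 17 alternatives, and no value could be taken without xHomo replicate 7, where the largest gap in Gstm6 was 0.554 of the range. With all 10 xHomo embryos the smallest permutation p was too large for a gene to pass alone. A count of 0 there does not show that no member followed Gstm6. The count of all genes called was 3 and became 11 with no filter on low values (3 higher and 8 lower), 5 with a filter at 0.5 FPKM (3 higher and 2 lower), 5 under TPM rescaling, 5 under TPM rescaling without small RNA genes, 5 under quantile normalization, 1 with the Xist covariate, 0 in the exact permutation test (whose smallest p, 0.0035, is too large for a pass here after adjustment over 12755 genes) and 8 in the low-Xist embryos, a setting chosen after seeing the data. It ranged from 1 to 11 on leaving out 1 embryo, with 1 without xHet replicate 2 or 3 and 11 without xHomo replicate 3.

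Gstm4 and Gstm5, whose differences were near 0, changed sign. Gstm4 was -0.026 under TPM rescaling, -0.12 under TPM rescaling without small RNA genes, and -0.069 to 0.17 on leaving out 1 embryo. Gstm5 was -0.074 under TPM rescaling, -0.18 without small RNA genes, -0.043 under median-of-ratios scaling, -0.10 under quantile normalization, -0.066 with the Xist covariate, -0.064 in the low-Xist embryos, and -0.075 to 0.14 on leaving out 1 embryo. The correlation with Gstm6 was -0.35 for Gstm4 without the 2 farthest embryos and -0.088 for Gstm5 under TPM rescaling. The causes were not tested. The median of all genes was 0.046 and became -0.12 under TPM rescaling without small RNA genes, so differences there are relative to that shift. Gstm1 and Gstm2 stayed positive in all 25 alternatives (adjusted p 0.0205 to 0.966 and 0.0152 to 0.966 in limma). Gstm6 was 0.87 to 0.97 on leaving out 1 embryo.

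Replicate numbers 1 to 3 recur in both groups without a stated pairing. Deviations of same-numbered embryos correlated at -0.065, -0.040 and -0.038, and no xHet embryo correlated best with the xHomo embryo of its own number. With so few embryos these values cannot show whether same-numbered embryos shared a litter or batch. With a replicate block over these 6 embryos 1 gene was called, and the differences were 0.16 for Gstm1 against 0.49 without the block, -0.34 for Gstm4, -0.089 for Gstm5 and -0.18 for Gstm7.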
